A study of Mus musculus with 16 samples.

Results

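Retinoic acid synthesis, breakdown, binding and receptor genes were examined in chimeric mouse embryos of 3 stages, embryonic day (E) 7.5, 8.5 and 9.5. The set comprised 10 of the 29453 genes in the count matrix and was taken by name, with earlier results of these data known: *Rdh10*, *Aldh1a2* and *Aldh1a3* for synthesis, *Cyp26a1* and *Cyp26b1* for breakdown, *Crabp1* and *Crabp2* for binding in the cytoplasm, and *Rara*, *Rarb* and *Rarg* for the receptors. The chimeras were made by injecting *Stat3* null embryonic stem cells (ESCs), a line on the CD1 background that carried a histone H2B-tdTomato reporter, into wild-type (WT) CD1 blastocysts. Flow cytometry then separated tdTomato-positive cells (*Stat3* null, donor) from tdTomato-negative cells (WT, host) of the same embryos, and each fraction was sequenced with droplet 3′ single-cell chemistry, in which each captured transcript is tagged with a unique molecular identifier (UMI). Each genotype had 2 libraries at E7.5, another 2 at E8.5 and 4 at E9.5, from pooled embryos at the earlier stages and, by the labels, from single embryos at E9.5. The methods of the study give fewer E9.5 embryos than E9.5 libraries of a genotype, so these libraries may share embryos, and n counts libraries. Embryos of E7.5 were classed as large or small before pooling, and which libraries came from which size could not be told. Libraries of a group are called A to D, and a letter is only a name.

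Retinoic acid is made from vitamin A in successive oxidations. RDH10, a retinol dehydrogenase, makes retinaldehyde, and the retinaldehyde dehydrogenases ALDH1A2 and ALDH1A3 make the acid. CYP26 enzymes, which are cytochromes of the P450 family, degrade it, so that gradients form along the trunk, hindbrain and face. CRABP proteins bind it in the cytoplasm, and in the nucleus it binds the receptors RARA, RARB and RARG, which pair with retinoid X receptors on DNA. In the gastrulating and early somite embryo the pathway is known for patterning the hindbrain, the somites and spinal cord, the heart field, the forelimb field and the eye.

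The receptors bind direct repeats of a short half-site, and a repeat with a spacer of 5 bases is a form well known from the promoters of retinoic acid target genes. Promoter windows of 300 bases (250 before and 50 after each annotated start, RefSeq, GRCm38.p6) were searched on both strands for any pair of half-sites with a spacer of 5 bases, a half-site being AGGTCA, its variant AGTTCA, the further variant GGGTCA or, as the last, GGTTCA. Such a pair occurred in 32 of 32851 windows (0.0974%). Of the 10 genes, 7 had a window (11 windows in all), and the pair occurred in those of *Cyp26a1* and *Rarb*, which are shown because no window of the other 5 genes held these letters. *Aldh1a3*, *Rdh10* and *Crabp2* had no entry. The stretches below lie upstream of the RefSeq start site, read 5′ to 3′ on the strand of the gene, and capitals mark the pair with its spacer.
*Cyp26a1*, chr19:37697768-37697797, plus strand: attaaagaTGAACTTTGGGTGAACTaattt
*Rarb*, chr14:16575508-16575537, minus strand: ccgggaagGGTTCACCGAAAGTTCActcgc

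In *Cyp26a1* the pair reads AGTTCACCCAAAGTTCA on the opposite strand and lies 15 bases before the RefSeq start, just upstream of the annotated gene. In *Rarb* it reads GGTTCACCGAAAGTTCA on the strand of the gene, 36 bases before a RefSeq start that lies inside the longest annotated gene body (16430839 to 16819156). The GENCODE annotation places this *Rarb* stretch in the 5′ UTR exon of longer transcripts. A match describes letters in a window and does not show binding. On the same build, *Rara* lies on chromosome 11 (98927818 to 98974942, plus strand), 1.91 Mb from the targeted *Stat3* locus (100885098 to 100939540), and the other 9 genes lie on other chromosomes.

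After removal of doublets and of the 596 WT-sorted cells that held tdTomato transcript, 37841 of 41832 cells in 87 types named by the authors were analysed, with 360 to 4327 cells and 20682659 to 138613245 UMIs per library. A tdTomato UMI was found in 72.3% to 98.3% of null-sorted singlets and in 0.104% to 8.47% of WT-sorted singlets. *Stat3* itself, the targeted gene, was at 1.16 to 2.53 CPM (UMIs of a gene over all UMIs summed, scaled to 1000000) in the null libraries and at 6.14 to 9.31 CPM in the WT libraries, with no overlap. E9.5 WT C and WT D shared 292 cell barcodes, against at most 8 for any other pair of libraries, and 10 of those 292 carried the same type in both, so results that rest on these libraries were also computed without the 584 cells. Of 50 stage and type combinations that were among the 3 highest of a gene, 41 had a marker list, and in 32 of these every marker was above its median over the types. A further 9 combinations had a list, and every marker was above in 7, the exceptions being *En1* in the E9.5 Optic vesicle and *Pax3* in the E9.5 Sclerotome. In the E7.5 Intermediate mesoderm 2 of 4 markers were not (*Pax2* and *Wt1*), while *Osr1* and *Lhx1* were. The label itself was transferred from the atlas by the authors, and these markers bear it out only in part.

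Levels are given as CPM of the summed counts of a type in a library, over the WT types that had over 15 cells in 2 or more libraries (11 types at E7.5, 36 at E8.5 and 40 at E9.5). Because the type labels were transferred through variable genes that can include these 10, levels across types are a description without a test. Erythroid cells served as the reference for free RNA. In WT at E8.5 their mean levels lay between 0.333 CPM (*Cyp26b1*) and 4.49 CPM (*Rdh10*) for all but the binding proteins. Those were at 17.5 CPM (*Crabp2*) and 47.8 CPM (*Crabp1*). At E9.5 the WT range was 0.542 CPM (*Cyp26a1*) to 4.15 CPM (*Rdh10*), with 23.5 CPM for *Crabp2* and 66.5 CPM for *Crabp1*. In the 2 E8.5 null libraries the means were lower for all genes but *Rdh10* (5.39 CPM), with 13.9 CPM for *Crabp1* and 5.38 CPM for *Crabp2*. No E9.5 null library had enough Erythroid cells, so null had no such reference there. At E7.5 no Erythroid type met the cell minimum.

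*Aldh1a2*, the main source of retinoic acid in the early embryo, was concentrated in 1 mesodermal type at E7.5 and in heart-field and somite derivatives later. Intermediate mesoderm was at 773 and 295 CPM in WT A and B, and held 67.3% of the *Aldh1a2* UMIs of the stage from 5.16% of all UMIs. Paraxial mesoderm followed at 109 and 76.1 CPM and Caudal epiblast at 26.6 and 52.8 CPM, and none of these overlapped the next type in the order. At E8.5 the highest types were Dermomyotome (158 and 278 CPM), Cardiopharyngeal progenitors FHF, the first heart field, (233 and 195 CPM) and Sclerotome (175 and 224 CPM), and their libraries overlapped. At E9.5 the first heart field progenitors (161 ± 17.3 CPM (SD, n = 4)), Pharyngeal mesoderm (155 ± 56.8 CPM (SD, n = 4)) and Posterior somitic tissues (118 ± 21.9 CPM (SD, n = 4)) led, again with overlapping libraries. Only the E7.5 maximum thus stood clear of the types below it. Its WT libraries lay far apart, and the mean atlas stage that the authors transferred to the cells was 7.83 in WT A and 7.65 in WT B for this type, and 7.76 and 7.58 over all cells, and its part in the gap was not tested.

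*Aldh1a3*, the enzyme known from the eye and face, was highest in ectoderm from E8.5 on. At E7.5 its highest type, Blood progenitors, was at 3.81 and 6.13 CPM, from 7 and 15 UMIs, and Mesenchyme (3.78 and 1.69 CPM) and Lateral plate mesoderm (1.46 and 1.73 CPM) were lower. At E8.5 Placodal ectoderm stood at 356 and 309 CPM, clear of Surface ectoderm at 90.8 and 48.8 CPM and of Pharyngeal endoderm at 31.3 and 5.41 CPM, and held 52.1% of the UMIs of the gene from 1.14% of all UMIs. At E9.5 Placodal ectoderm was at 475 and 476 CPM in the 2 libraries with enough cells, inside the spread of Surface ectoderm (203, 417 and 640.2 CPM). Pharyngeal endoderm varied most, at 76.2, 498 and 153 CPM. At E9.5, 4 of 40 types were above 100 CPM for either gene, and none of the 3 leading types of *Aldh1a3* was among the 3 leading types of *Aldh1a2*.

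*Rdh10*, which supplies both dehydrogenases, was spread more evenly. Its E7.5 levels were highest in Intermediate mesoderm (26.2 and 17.8 CPM), Paraxial mesoderm (20.4 and 15.8 CPM) and Visceral endoderm (16.8 and 16.7 CPM). The second heart field progenitors (Cardiopharyngeal progenitors SHF) were highest at E8.5 with 65.2 and 68.5 CPM, and Pharyngeal mesoderm (47.3 and 59.4 CPM) and Limb mesoderm (45.9 and 53.0 CPM) followed. At E9.5 the same progenitors were at 38.9, 47.3 and 76.6 CPM, overlapping Cranial mesoderm (34.1 ± 13.2 CPM (SD, n = 4)) and Thyroid primordium (32.7 ± 10.3 CPM (SD, n = 3)). Its Erythroid level was 4.49 CPM at E8.5 and 4.15 CPM at E9.5, below the median type at 7.84 and 12.1 CPM. From the highest level down, Erythroid ranked 30 of 36 types and 38 of 40.

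The degrading enzymes were highest in different tissues. *Cyp26a1* was high in tail-end progenitors: at E8.5 neuromesodermal progenitors (NMPs) were at 118 and 59.7 CPM and Presomitic mesoderm at 40.9 and 27.9 CPM, the latter overlapping Mesenchyme (35.4 and 22.9 CPM). NMPs/Mesoderm-biased, a type with too few cells in a library for the list, held 17.8% of the *Cyp26a1* UMIs of E8.5 from 0.594% of all UMIs. At E9.5 Somitic mesoderm (83.6 and 26.1 CPM) and Presomitic mesoderm (39.9 and 55.0 CPM) led among the listed types, clear of Cranial mesoderm (15.5 ± 2.96 CPM (SD, n = 4)). NMPs and NMPs/Mesoderm-biased had too few cells for the list at E9.5, and held 11.3% and 7.40% of the UMIs of the gene from 0.384% and 0.114% of all UMIs. At E7.5 it was highest, among the listed types, in Visceral endoderm (43.9 and 124 CPM), Paraxial mesoderm (64.3 and 47.8 CPM) and Gut tube (54.2 and 48.8 CPM). Nascent mesoderm, which had enough cells in WT B alone, held 21.5% of its UMIs from 6.90% of all UMIs.

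*Cyp26b1* was highest in the hindbrain from E8.5 on. At E7.5 it was near 0, with 3 UMIs of the gene in its highest listed type, Blood progenitors, and 2 each in Mesenchyme and Lateral plate mesoderm, and 5 of 11 types at 0. Nascent mesoderm and Amniotic ectoderm, outside the list, held 6 and 4 of its 29 UMIs. Ventral hindbrain progenitors were at 61.7 and 28.3 CPM at E8.5 and at 106, 108, 107 and 112 CPM in WT A to D at E9.5. The latter 4 libraries differed little and lay clear of Dorsal hindbrain progenitors at 26.4, 25.7, 41.0 and 40.4 CPM. At E8.5 Dorsal hindbrain progenitors (20.2 and 32.8 CPM) and Pharyngeal endoderm (27.3 and 15.3 CPM) came next, and at E9.5 Thyroid primordium (32.8 ± 9.78 CPM (SD, n = 3)) overlapped the dorsal hindbrain. Ventral hindbrain progenitors held 43.8% of the UMIs of the gene at E8.5 and 45.8% at E9.5, from 3.77% and 4.39% of all UMIs.

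*Crabp1* and *Crabp2*, the cytoplasmic binding proteins, were highest in neural tissue and neural crest derivatives from E8.5 on. *Crabp1* was highest at E7.5 in Paraxial mesoderm (496 and 369 CPM), Intermediate mesoderm (424 and 159.9 CPM) and Lateral plate mesoderm (223 and 143 CPM). By E8.5 it had its peak in Dorsal hindbrain progenitors (3132 and 4819 CPM), Ventral hindbrain progenitors (4188 and 3729 CPM) and Migratory neural crest (4502 and 3121 CPM), which overlapped. At E9.5 Dorsal midbrain neurons (4832 ± 219 CPM (SD, n = 4)) did not overlap Frontonasal mesenchyme (4058 ± 308 CPM (SD, n = 4)), and neither did the latter overlap Dorsal hindbrain progenitors (2748 ± 557 CPM (SD, n = 4)). At E7.5 *Crabp2* was highest in Ectoderm (154 and 61.0 CPM), Caudal epiblast (155 and 45.4 CPM) and Paraxial mesoderm (124 and 63.3 CPM), with WT A above WT B in each. It led in Dorsal spinal cord progenitors afterwards, at 1563 and 1433 CPM at E8.5 and 1012, 1174, 1095 and 1070.4 CPM at E9.5. Ventral hindbrain progenitors (1287 and 989.9 CPM) and Dorsal hindbrain progenitors (1090.2 and 1152 CPM) followed at E8.5. At E9.5 the Hindbrain neural progenitors (1054 ± 81.6 CPM (SD, n = 4)) and Ventral hindbrain progenitors (1039 ± 53.2 CPM (SD, n = 4)) were within that spread.

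*Rara* was even across types, above 10 CPM in 10 of 11, 33 of 36 and 37 of 40 types at the 3 stages. Its highest levels were in Visceral endoderm at E7.5 (38.8 and 24.4 CPM), Foregut at E8.5 (37.9 and 57.7 CPM) and Migratory neural crest at E9.5 (47.5, 56.1, 42.7 and 43.5 CPM), each overlapping the next type. Close behind were Caudal epiblast (32.0 and 11.9 CPM) and Gut tube (18.4 and 23.9 CPM) at E7.5, Migratory neural crest (50.4 and 37.7 CPM) and Allantois (44.0 and 33.6 CPM) at E8.5, and Dorsal midbrain neurons (45.0 ± 8.13 CPM (SD, n = 4)) and first heart field progenitors (44.9 ± 6.29 CPM (SD, n = 4)) at E9.5. *Rarb*, the receptor gene that retinoic acid itself induces, was highest in Foregut at E8.5 (42.2 and 55.2 CPM), followed by Thyroid primordium (39.7 and 41.3 CPM) and Dorsal spinal cord progenitors (40.2 and 33.4 CPM). At E9.5 Epicardium (43.5 ± 6.92 CPM (SD, n = 4)), Thyroid primordium (37.1 ± 16.7 CPM (SD, n = 3)) and Hindbrain neural progenitors (36.4 ± 3.33 CPM (SD, n = 4)) overlapped. At E7.5 its levels differed between the libraries, in Non-neural ectoderm (26.1 and 4.42 CPM), Paraxial mesoderm (15.9 and 5.05 CPM) and Visceral endoderm (19.4 and 1.19 CPM). *Rarg* was highest in Mesenchyme, Non-neural ectoderm and Lateral plate mesoderm at E7.5 (74.3 and 46.1 CPM, 47.9 and 60.2 CPM and 63.1 and 41.8 CPM), Lateral plate mesoderm, NMPs and Presomitic mesoderm at E8.5 (61.5 and 67.6 CPM, 67.2 and 55.2 CPM and 58.2 and 63.2 CPM), and Somitic mesoderm, Presomitic mesoderm and Branchial arch neural crest at E9.5 (69.9 and 53.3 CPM, 52.0 and 56.6 CPM and 52.6 ± 2.35 CPM (SD, n = 4)).

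**Figure D1:**
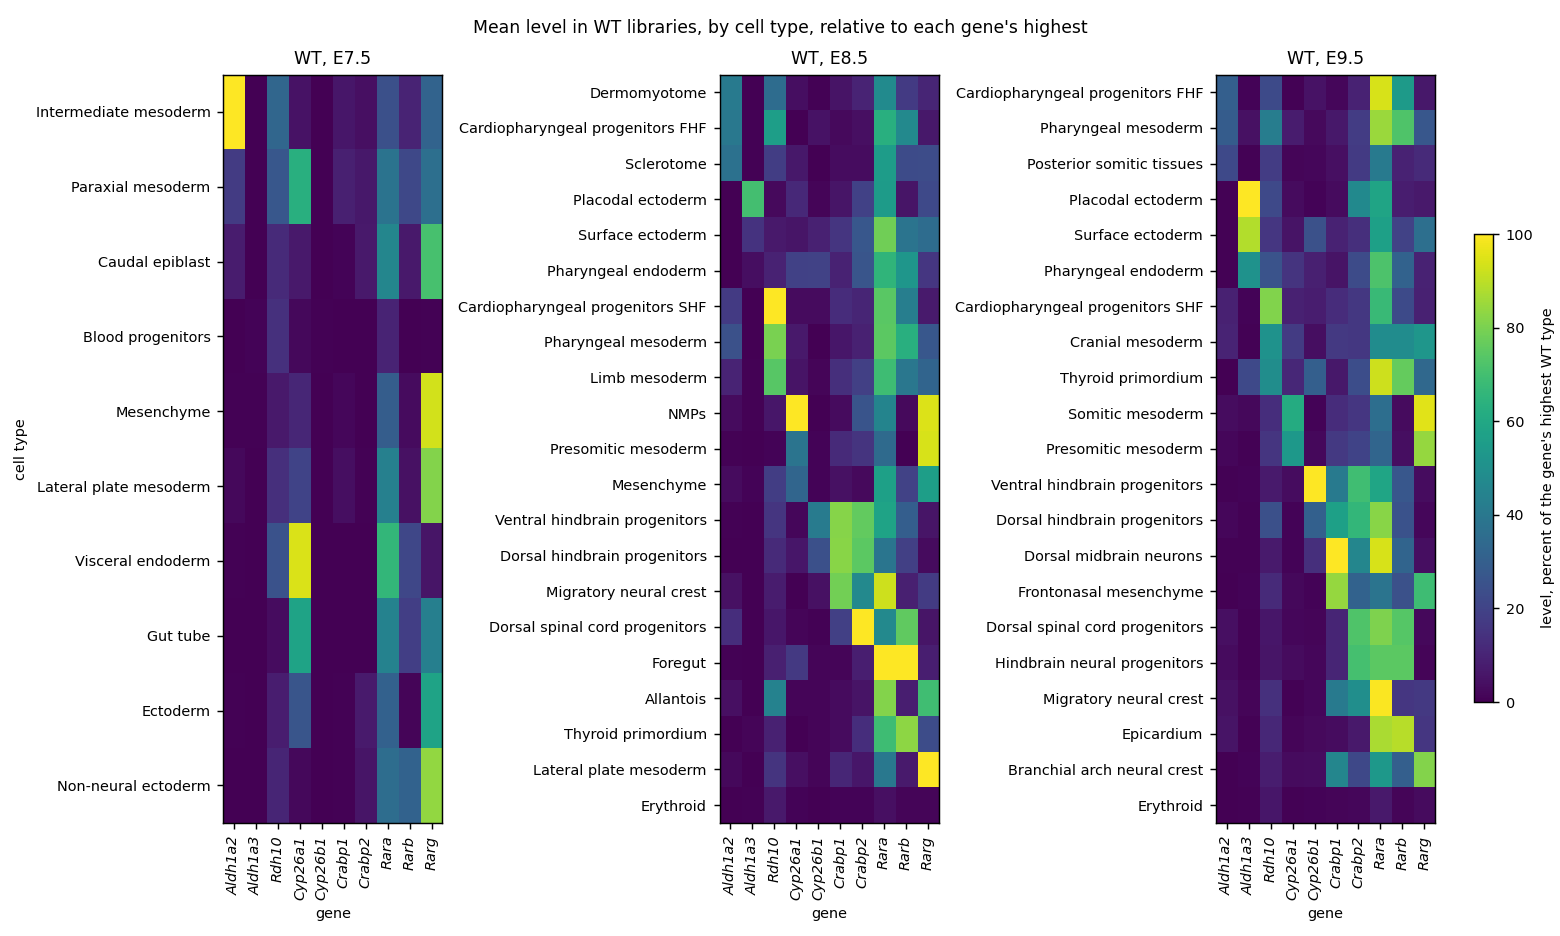
Mean level of each gene in the WT libraries by cell type (rows) in a panel per stage, coloured as the percent of the highest WT type mean of that gene over the 3 stages. Rows are the 3 highest types of each gene and Erythroid, the reference for free RNA; *Aldh1a2* peaked in E7.5 Intermediate mesoderm, *Cyp26b1* in E9.5 Ventral hindbrain progenitors and *Rarg* in E8.5 Lateral plate mesoderm.

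Over the 87 WT stage and type combinations, which share libraries, Pearson's r of log2(CPM + 1) described how the patterns of the genes relate. Among pairs within the set, *Crabp1* with *Crabp2* (0.71) and *Rara* with *Rarb* (0.70) were most alike, *Cyp26b1* followed *Crabp1* (0.53), *Aldh1a2* followed *Rdh10* (0.50) and *Cyp26a1* followed *Rarg* (0.40). *Aldh1a2* and *Cyp26a1*, a source and a sink, were at -0.058, and *Aldh1a2* and *Aldh1a3* at -0.28. Among 18624 genes the 3 closest to *Aldh1a2* were *Pdgfra* (0.66), *Angptl1* (0.64) and *Foxl1* (0.62), and those closest to *Aldh1a3* were *Six6* (0.76), *Unc13c* (0.75) and *Emx1* (0.73), of which *Six6* is an eye-field factor. *Rdh10* was closest to *Tgfb2* (0.59), *Scara3* (0.56) and *Ctdsp1* (0.55). *Cyp26a1* was closest to *Bhmt2* (0.57), *Dmgdh* (0.56) and *T* (0.56), the last being the brachyury gene of the primitive streak and tail bud. *Cyp26b1* was closest to *Clrn1* (0.61), *Cab39* (0.54) and *Slc12a5* (0.54). *Crabp1* had *Crabp2* (0.71), *Nsg1* (0.68) and *Wdr61* (0.68) as its nearest genes, and *Crabp2* had *Sfrp2* (0.86), *Elovl2* (0.83) and *Msi1* (0.82). Among the receptors, *Rara* was closest to *Neo1* (0.79), *Basp1* (0.79) and *Rhou* (0.78), *Rarb* to *Rara* (0.70), *Meis2* (0.68) and *Plat* (0.67) and *Rarg* to *Itgb5* (0.71), *Ptk7* (0.70) and *Mnat1* (0.65).

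In WT cells as a whole, most of the genes changed between E7.5 and E8.5. In sums over all cells of a library, 9 of 10 genes passed the test between these stages (edgeR, quasi-likelihood F test, adjusted p under 0.05), 7 higher and 2 lower at E8.5, where 44.8% of all 15567 genes tested passed. In such sums fewer cells of a type and less RNA per cell cannot be told apart, and the tissue make-up of the embryo changes between stages. *Crabp1* was at 126 and 83.5 CPM in the E7.5 WT libraries, 729 and 625 CPM at E8.5 and 883 to 1092 CPM at E9.5, a rise from the first to the second stage (log2 fold change 2.87, SE 0.20, adjusted p = 7.59e-07). *Crabp2* went from 53.6 and 21.6 CPM to 313 and 273 CPM (log2 fold change 3.16, SE 0.38, adjusted p = 4.99e-05). *Cyp26b1* rose from 0.405 and 0.332 CPM to 4.97 and 2.97 CPM (log2 fold change 3.63, SE 0.53, adjusted p = 1.64e-04). None of these groups overlapped between E7.5 and E8.5, but the share of all genes whose libraries separate in this way was not taken.

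*Aldh1a3* rose from 1.55 and 1.18 to 7.84 and 6.73 CPM (log2 fold change 2.63, SE 0.58, adjusted p = 0.0033) and *Rarb* from 4.67 and 1.55 to 9.47 and 8.96 CPM (log2 fold change 1.83, SE 0.34, adjusted p = 9.06e-04). Smaller rises were those of *Rara* (log2 fold change 0.54, SE 0.10, adjusted p = 7.84e-04) and *Rdh10* (log2 fold change 0.43, SE 0.15, adjusted p = 0.0256), and the call on *Rdh10* was lost without E7.5 WT B (0.36), E8.5 WT A (0.50) or E8.5 WT B (0.37). Downwards moved *Cyp26a1*, from 24.1 and 29.1 to 7.46 and 8.89 CPM (log2 fold change -1.54, SE 0.30, adjusted p = 0.00136), and *Rarg*, from 31.6 and 26.3 to 13.9 and 15.97 CPM (log2 fold change -0.78, SE 0.17, adjusted p = 0.00212). *Aldh1a2* did not pass. Its E7.5 libraries were far apart at 84.4 and 21.7 CPM against 23.0 and 27.2 CPM (log2 fold change -0.88, SE 0.44, adjusted p = 0.122), and its fold change was -1.55 and past the threshold without E7.5 WT B and 0.35 without E7.5 WT A. With the types shared by all WT libraries of both stages weighted equally, 5 of 9 genes tested passed, all higher at E8.5, where 22.3% of all genes did, *Aldh1a2* among them with a log2 difference of 1.14, but only Lateral plate mesoderm and Mesenchyme met that condition. *Cyp26a1* (-0.21), *Rarg* (-0.19), *Rara* (0.39) and *Aldh1a3* (-0.51) did not pass in that comparison.

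From E8.5 to E9.5, 4 of 10 genes passed in all WT cells, 3 higher and 1 lower, where 40.4% of all genes passed. *Cyp26b1* was at 7.93 to 13.4 CPM at E9.5 (log2 fold change 1.17, SE 0.34, adjusted p = 0.015), *Aldh1a3* at 15.1 to 21.4 CPM (log2 fold change 1.16, SE 0.42, adjusted p = 0.0442) and *Rara* at 26.6 to 31.6 CPM (log2 fold change 0.27, SE 0.086, adjusted p = 0.0216). *Cyp26a1* declined further to 3.46 to 6.17 CPM (log2 fold change -1.02, SE 0.26, adjusted p = 0.00709). The *Aldh1a3* call was lost in 11 of 16 fits that each left out 1 library (1.04 to 1.30), with the cells of shared barcodes left out (1.15) and in further settings. The mean transferred atlas stage was 8.87 and 8.63 in E8.5 WT A and B and 8.96 to 9.06 in the E9.5 libraries, and its part in these changes was not tested. Without E8.5 WT B none of the 4 passed (*Cyp26b1* 0.84, *Cyp26a1* -0.90, *Rara* 0.26, *Aldh1a3* 1.04), and without E8.5 WT A or E9.5 WT A 2 did. The share of all genes passing in the fits with a library left out was not taken, so a loss of calls over all genes cannot be told apart. With 18 shared types weighted equally, *Crabp2* (0.63), *Cyp26b1* (0.80), *Aldh1a3* (1.00), *Rarb* (0.37) and *Rara* (0.33) passed, 5 of 10 where 51.1% of all genes did, and *Cyp26a1* (-0.31, adjusted p = 0.0503, limma) did not.

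**Figure D2:**
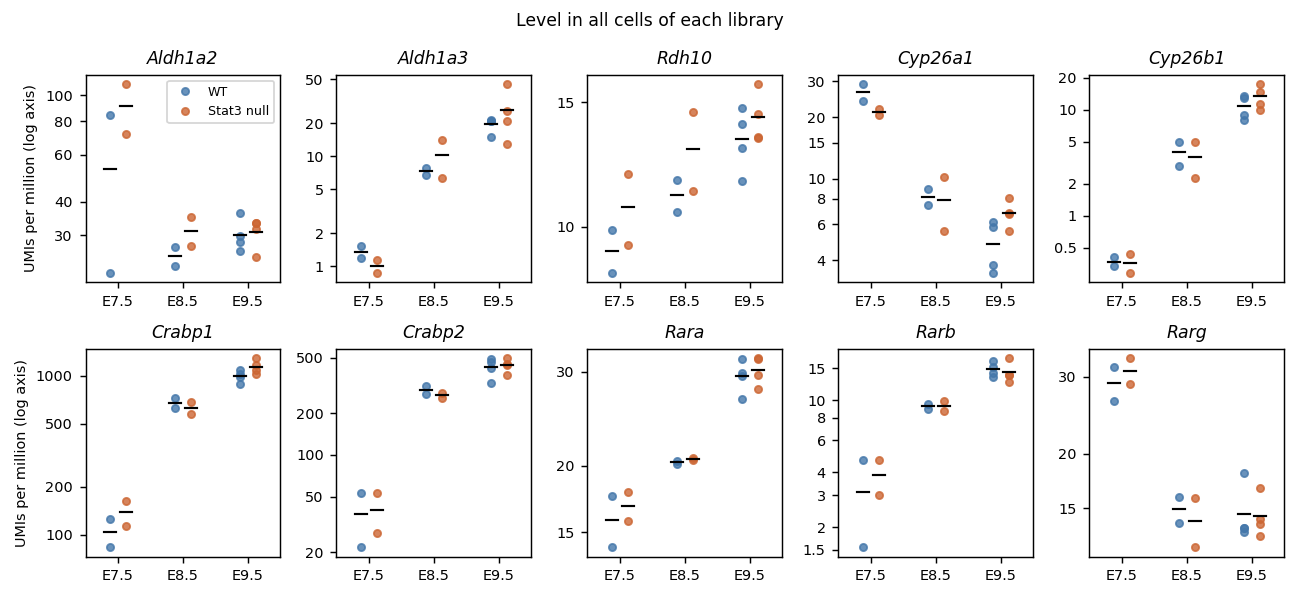
Level of each gene in the summed cells of each library, in CPM on a log axis, by stage for WT (blue) and *Stat3* null (orange) libraries; points are libraries and bars are group means. *Crabp1*, *Crabp2*, *Cyp26b1* and *Aldh1a3* were higher and *Cyp26a1* lower after E7.5 in both genotypes, and no difference between null and WT was called.

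Held within a cell type, the change from E8.5 to E9.5 in WT cells was seen for 9 of the 10 genes. Of 211 tests in 31 types, 35 were called (16.6%; 18 higher and 17 lower at E9.5) at an adjusted p under 0.05 and an absolute log2 fold change over 1, against 3.19% of all gene tests. The calls fell in 19 types. Of these calls, 10 held in every setting tried and 25 were lost when 1 library was left out, most often without E8.5 WT B (17 calls) or E8.5 WT A (14 calls), when 1 library stood for E8.5. None reversed.

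Among the synthesis genes, *Rdh10* fell in 5 of 26 types tested and rose in 2. In Limb mesoderm it went from 45.9 and 53.0 CPM to 22.8 to 30.2 CPM (log2 fold change -1.10, SE 0.15, adjusted p = 1.05e-04). Hindbrain floor plate, a ventral midline source of signals, went from 35.6 and 56.5 CPM to 13.3 to 17.4 CPM (log2 fold change -1.73, SE 0.24, adjusted p = 7.00e-05), and Cardiopharyngeal progenitors FHF from 38.6 and 36.2 CPM to 10.7 to 20.7 CPM (log2 fold change -1.51, SE 0.26, adjusted p = 2.17e-04). These 3 calls held in every setting. In the next type, Ventral hindbrain progenitors, the E9.5 levels of *Rdh10* lay on both sides of its E9.5 Erythroid mean (4.15 CPM). In Ventral hindbrain progenitors it went from 9.42 and 11.3 CPM to 3.31 to 6.41 CPM (log2 fold change -1.28, SE 0.29, adjusted p = 0.002), lost without E8.5 WT B (-1.14), and in Posterior somitic tissues from 30.8 and 26.6 CPM to 8.26 to 13.7 CPM (log2 fold change -1.38, SE 0.30, adjusted p = 0.00544), lost without E8.5 WT A (-1.30). The rise in Pharyngeal endoderm, from 5.56 and 7.22 CPM to 13.0 to 21.0 CPM (log2 fold change 1.21, SE 0.33, adjusted p = 0.0191), was lost without E8.5 WT A (1.02), E8.5 WT B (1.42), E9.5 WT A (1.18) or E9.5 WT B (1.07), and with DESeq2 (1.23). Presomitic mesoderm rested on 1 UMI at E8.5 against 24 at E9.5, a ratio of levels of 20.2 with a counting interval of 3.30 to 833, and was lost without E8.5 WT A (2.54), E8.5 WT B (6.58) or E9.5 WT A (4.02), and with DESeq2 (4.06).

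The dehydrogenases moved in opposite directions in the Optic vesicle, the forerunner of the eye. *Aldh1a2* there went from 10.7 and 25.4 CPM to 0.552 to 4.27 CPM (log2 fold change -3.23, SE 0.63, adjusted p = 0.0205), and *Aldh1a3* went from 3.01 and 2.97 CPM to 23.2 to 64.6 CPM (log2 fold change 3.54, SE 0.78, adjusted p = 0.0442). The first call was lost without E9.5 WT A (-3.11) or E9.5 WT C (-3.19), and with the tdTomato-marked WT cells kept (-2.39), and the second without E8.5 WT A (3.56), E8.5 WT B (3.53), E9.5 WT B (3.61) or E9.5 WT C (3.53), and with no filter on low counts (3.55), while both kept their direction. *Aldh1a3* also rose in Thyroid primordium, where E8.5 WT A and B held 0 and 4 UMIs and the E9.5 libraries were at 86.3 to 132 CPM (log2 fold change 3.94, SE 0.53, adjusted p = 1.80e-04), a call that held in every setting. *Aldh1a2* fell in Dorsal spinal cord progenitors, from 55.7 and 85.9 CPM to 11.1 to 29.4 CPM (log2 fold change -1.71, SE 0.34, adjusted p = 0.0287), lost without E8.5 WT B (-1.39), E9.5 WT B (-1.77) or E9.5 WT D (-1.67). In Dorsal hindbrain progenitors it was seen with 3 UMIs at E8.5 and 149 at E9.5, a ratio of levels of 8.56 with a counting interval of 2.87 to 42.0, and this call was lost without E8.5 WT A (2.19) or E8.5 WT B (3.54), and with the tdTomato-marked WT cells kept (2.97).

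Of the degrading enzymes, *Cyp26a1* fell in 2 of 8 types tested and *Cyp26b1* rose in 3 and fell in 1 of 9. The E9.5 *Cyp26a1* levels in Limb mesoderm lay on both sides of its E9.5 Erythroid mean (0.542 CPM). *Cyp26a1* in Mesenchyme went from 35.4 and 22.9 CPM to 7.86 to 14.9 CPM (log2 fold change -1.47, SE 0.25, adjusted p = 6.01e-04), which held in every setting, and in Limb mesoderm from 3.62 and 5.88 CPM to 0.469 to 1.56 CPM (log2 fold change -2.09, SE 0.54, adjusted p = 0.0166), lost without E8.5 WT A (-2.47) or E8.5 WT B (-1.77). *Cyp26b1* in Ventral hindbrain progenitors, its main site, went from 61.7 and 28.3 CPM to 106 to 112 CPM (log2 fold change 1.02, SE 0.25, adjusted p = 0.0344). That call was lost without E8.5 WT B (0.61), E9.5 WT A (1.03), E9.5 WT B (1.02), E9.5 WT C (1.03) or E9.5 WT D (1.00), and with the cells of shared barcodes left out (1.02), with a fold change near its threshold. In Hindbrain floor plate E8.5 WT A and B held 4 and 0 UMIs of it and the E9.5 libraries were at 17.9 to 34.2 CPM (log2 fold change 3.05, SE 0.69, adjusted p = 0.02), lost without E8.5 WT B (2.17). Thyroid primordium held 1 UMI at E8.5 and 49 at E9.5, a ratio of levels of 21.0 with a counting interval of 3.60 to 848, lost without E8.5 WT B (3.17) or E9.5 WT B (3.87), and with DESeq2 (4.33). Pharyngeal endoderm went the other way, from 27.3 and 15.3 CPM to 6.496 to 14.99 CPM (log2 fold change -1.39, SE 0.33, adjusted p = 0.0112), lost without E8.5 WT A (-0.95).

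The binding proteins moved in opposite directions in Placodal ectoderm and together in Mesenchyme. *Crabp1* fell in 4 of 31 types and rose in 1, and *Crabp2* rose in 5 of 31 and fell in 1. In Mesenchyme *Crabp1* went from 215 and 215 CPM to 481 to 571 CPM (log2 fold change 1.19, SE 0.096, adjusted p = 2.49e-07), and *Crabp2* from 26.3 and 49.7 CPM to 101 to 132 CPM (log2 fold change 1.45, SE 0.22, adjusted p = 0.00179). In Placodal ectoderm *Crabp1* went from 288 and 262 CPM to 121 to 172 CPM (log2 fold change -1.03, SE 0.15, adjusted p = 3.71e-05) and *Crabp2* from 326 and 252 CPM to 659 to 759.7 CPM (log2 fold change 1.17, SE 0.12, adjusted p = 1.38e-07). *Crabp1* fell in Ventral hindbrain progenitors, from 4188 and 3729 CPM to 1718 to 2253 CPM (log2 fold change -1.21, SE 0.12, adjusted p = 2.40e-04), and *Crabp2* rose in Cranial mesoderm, from 96.4 and 96.6 CPM to 188 to 268 CPM (log2 fold change 1.10, SE 0.14, adjusted p = 2.73e-07). Among these, the call of *Crabp1* in Placodal ectoderm was lost without E8.5 WT A (-0.98) or E9.5 WT A (-0.79) and the others held in every setting.

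*Crabp1* further fell in Dorsal spinal cord progenitors (log2 fold change -1.05, SE 0.13, adjusted p = 0.00116), lost without E8.5 WT B (-0.95) or E9.5 WT C (-0.98), and in Pharyngeal endoderm (log2 fold change -1.04, SE 0.11, adjusted p = 2.22e-06), lost without E8.5 WT A (-0.95) or E9.5 WT A (-0.93). Both estimates stayed below 0 in these fits. *Crabp2* also rose in Embryo proper mesothelium (log2 fold change 1.18, SE 0.26, adjusted p = 0.00601), lost without E8.5 WT A (0.71), and in Branchial arch neural crest (log2 fold change 1.11, SE 0.26, adjusted p = 0.0402), lost without E8.5 WT B (0.79), E9.5 WT A (1.09), E9.5 WT B (1.07), E9.5 WT C (1.08) or E9.5 WT D (1.16). Surface ectoderm was the only type with a call of a fall (log2 fold change -1.11, SE 0.14, adjusted p = 2.12e-05), lost without E8.5 WT B (-0.99).

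The receptors differed in their calls, and a difference between them was not tested. With the 18 shared types weighted equally, *Rara* (0.33) and *Rarb* (0.37) both passed, and *Rarg* (-0.079) did not. *Rarb* rose in 4 of 22 types tested, *Rarg* fell in 2 of 23, and *Rara* was called in 0 of 31 (edgeR). Of the *Rara* tests 7 were at an unadjusted p under 0.05 (edgeR), as were 22.6% of all gene tests. *Rarb* in Allantois, the stalk of the future umbilical vessels, went from 4.40 and 3.90 CPM to 21.8 to 44.2 CPM (log2 fold change 2.62, SE 0.44, adjusted p = 0.00799), lost without E8.5 WT B (2.53). In Branchial arch neural crest it went from 5.15 and 6.14 CPM to 11.1 to 17.0 CPM (log2 fold change 1.21, SE 0.29, adjusted p = 0.00311), lost without E8.5 WT A (1.06), and in Cranial mesoderm from 7.54 and 10.99 CPM to 22.2 to 25.8 CPM (log2 fold change 1.12, SE 0.30, adjusted p = 0.00835), lost without E8.5 WT A (0.88). In Midbrain/Hindbrain boundary 1 UMI at E8.5 stood against 39 at E9.5, a ratio of levels of 34.4 with a counting interval of 5.82 to 1393, lost without E8.5 WT A (3.50) or E8.5 WT B (6.87), and with DESeq2 (4.91) or with the tdTomato-marked WT cells kept (4.65). *Rarg* fell in Placodal ectoderm, from 16.5 and 12.1 CPM to 3.33 to 5.41 CPM (log2 fold change -1.81, SE 0.54, adjusted p = 0.0414), lost without E8.5 WT A (-1.58), E8.5 WT B (-1.99), E9.5 WT A (-2.18) or E9.5 WT D (-1.53), and with DESeq2 (-1.84), and in Dorsal spinal cord progenitors, from 3.74 and 3.56 CPM to 0.805 to 2.96 CPM (log2 fold change -1.63, SE 0.57, adjusted p = 0.049), lost without E8.5 WT B (-1.65) or E9.5 WT C (-1.66), and with DESeq2 (-1.56). The E9.5 *Rarg* levels in Dorsal spinal cord progenitors rested on 3 to 8 UMIs per library and lay on both sides of the Erythroid mean (1.81 CPM). No receptor call held in every setting.

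**Figure D3:**
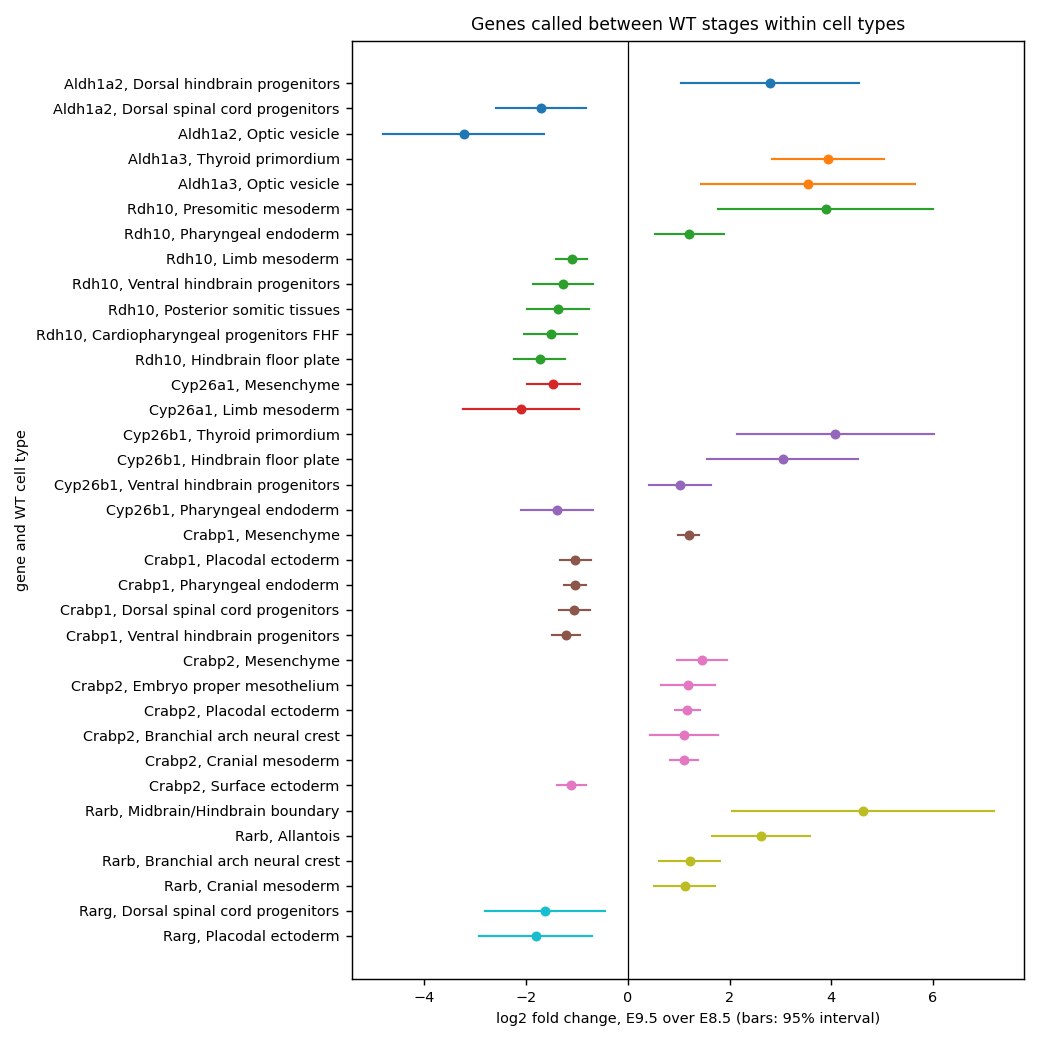
The 35 calls between E9.5 and E8.5 within WT cell types, as log2 fold change (points) with its 95% interval (bars), coloured by gene. *Rdh10* calls lie mostly below 0, *Crabp2* calls mostly above, and those of *Aldh1a2* and *Aldh1a3* in the Optic vesicle lie on opposite sides.

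Other genes of the pathway were read from lists of named genes. Of 25 genes that carry, store or metabolise retinoids or pair with the receptors, 17 of 458 tests between the WT stages were called (3.71%, near the 3.19% of all gene tests; 10 higher and 7 lower, median log2 fold change 0.15). Of 20 genes known to respond to retinoic acid, 73 of 387 were called (18.9%; 50 higher and 23 lower, median 0.30), against the same 3.19% and a median over all genes of 0.012. List calls between the WT stages were not refitted without single libraries.

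The comparison of null with WT cells asks whether donor cells without *Stat3* express these genes as host cells of the same embryo and type do. Within types, 0 of 45 tests were called at E7.5, 0 of 131 at E8.5 and 0 of 248 at E9.5 (edgeR), where 0.186%, 0.0609% and 0.12% of all gene tests were called. Of these tests 4, 15 and 27 were at an unadjusted p under 0.05 (edgeR), as were 4.06%, 4.32% and 6.26% of all gene tests. With edgeR the share was larger for these genes at each stage. Tests of a gene in several types share libraries and are not independent, so this is not read as a result about the genes. DESeq2 also called 0 at each stage, where it called 85 of 64183, 140 of 163520 and 480 of 307342 gene tests. Of these genes 2, 5 and 24 tests were at an unadjusted p under 0.05 (DESeq2), and that share over all genes was not taken. The 95% interval of the fold change lay within 2-fold either way in 253 of the 424 tests and reached further in the rest. Of 640 pairs of gene and type, 424 had enough counts to be tested.

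How far each gene was bounded differed. For *Rara*, which lies near the targeted locus, the interval was within 2-fold in 57 of 64 tests, with fold changes between -0.43 and 0.66 on the log2 scale. *Crabp2* (47 of 62), *Crabp1* (45 of 64), *Rarg* (30 of 43) and *Rarb* (27 of 43) followed. *Rdh10* (25 of 58), *Cyp26b1* (6 of 14), *Cyp26a1* (5 of 18), *Aldh1a2* (11 of 40) and *Aldh1a3* (0 of 18) were bounded less often. The fold change was above 0 in 208 tests and below 0 in 216, with a median of -0.0066.

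Among the 3 highest WT types of each gene and stage, 61 of 90 pairs of gene and type could be tested, with fold changes between -0.87 and 1.26 on the log2 scale. *Aldh1a2* in E7.5 Intermediate mesoderm was at 689.6 and 836 CPM in null A and B, null A between and null B above the WT pair of 773 and 295 CPM (log2 fold change 0.54, 95% interval -1.94 to 3.02). In E9.5 first heart field progenitors it was at 184, 124, 162 and 179.8 CPM in null and 167, 146, 183 and 148 CPM in WT libraries (log2 fold change -0.0041, 95% interval -0.23 to 0.23). The 2 sets overlapped, and the interval was narrow. *Cyp26b1* in E9.5 Ventral hindbrain progenitors was at 135, 102, 83.3 and 197 CPM in null libraries, spread on both sides of the WT libraries at 106, 108, 107 and 112 CPM (log2 fold change 0.29, 95% interval -0.36 to 0.94). *Crabp1* in E9.5 Dorsal midbrain neurons was at 5155, 5216, 5362 and 5401 CPM in null and 4559.8, 4837, 5095 and 4836 CPM in WT libraries, without overlap but with a small difference (log2 fold change 0.13, 95% interval 0.015 to 0.25, adjusted p = 0.736).

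*Cyp26a1* in E9.5 Presomitic mesoderm was at 18.5 and 69.3 CPM in null A and D and 39.9 and 55.0 CPM in WT A and D, and its interval was wide (log2 fold change -0.17, 95% interval -2.39 to 2.05). *Rarg* in the same type was at 62.1 and 50.3 CPM and 52.0 and 56.6 CPM (log2 fold change 0.028, 95% interval -0.42 to 0.48), a narrower interval than that of the enzyme. *Rarb* in Hindbrain neural progenitors at E9.5 was at 36.0, 35.9, 36.3 and 27.9 CPM in null and 35.1, 35.5, 41.3 and 33.8 CPM in WT libraries (log2 fold change -0.028, 95% interval -0.32 to 0.27). *Aldh1a3* in E9.5 Placodal ectoderm was at 1069.5 and 658 CPM in null A and B, above WT A and D at 475 and 476 CPM (log2 fold change 0.86, 95% interval 0.22 to 1.51, adjusted p = 0.674), and was called without E9.5 null B (1.15). At E8.5 a single null library had enough Placodal ectoderm cells, at 991 CPM against 356 and 309 CPM, and was not tested.

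**Figure D4:**
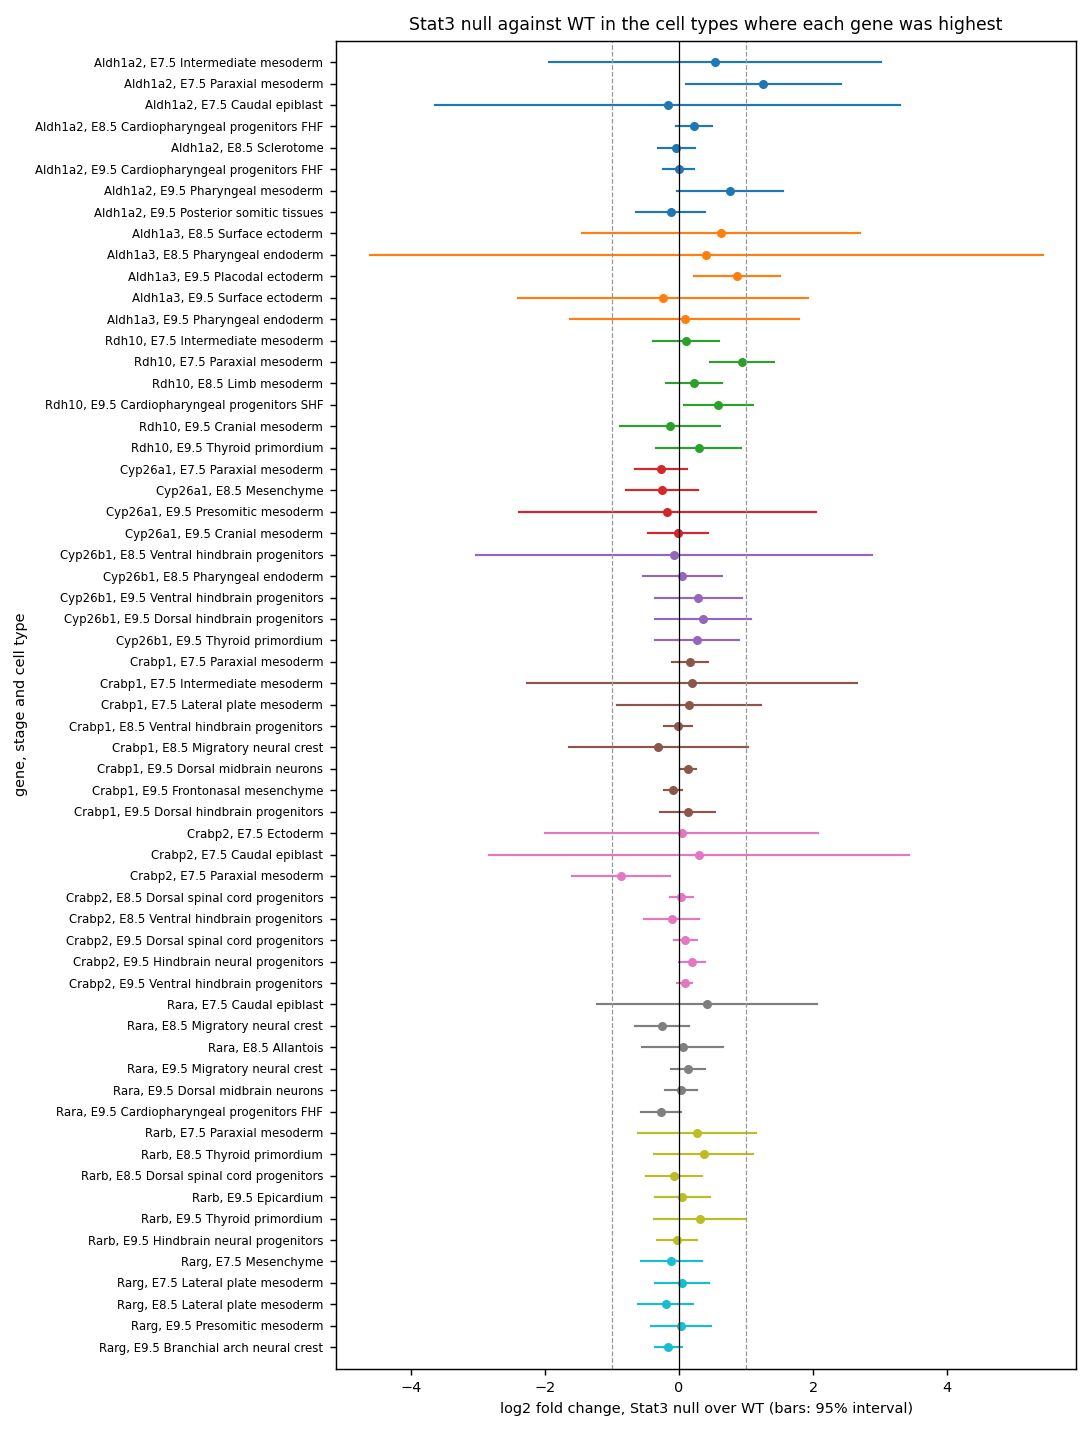
Log2 fold change of *Stat3* null over WT libraries (points) with its 95% interval (bars) for the 61 tested pairs of gene and type among the 3 highest WT types of each gene and stage; dashed lines mark 2-fold. The interval lay within 2-fold in 38 pairs, and no pair was called.

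The 5 differences with the lowest adjusted p were chosen after their values were seen, and null was higher in all of them. *Crabp1* in Late dorsal forebrain progenitors at E9.5 was at 123 and 104 CPM in null A and B and 63.5, 54.7, 63.6 and 60 CPM in WT A to D (log2 fold change 0.91, SE 0.16, adjusted p = 0.00281), past the p threshold and under the fold threshold. *Aldh1a2* in second heart field progenitors at E9.5 was at 124, 94.7 and 83.0 CPM in null and 33.1, 53.5 and 58.9 CPM in WT libraries (log2 fold change 0.97, SE 0.21, adjusted p = 0.0531). *Cyp26b1* in Limb ectoderm at E9.5 was at 53.8 and 63.3 CPM in null A and B and 22.4 and 12.02 CPM in WT A and D (log2 fold change 1.67, SE 0.34, adjusted p = 0.0923), from 129 and 19 UMIs. The other 2 were of *Rdh10*, in E9.5 Embryo proper mesothelium (35.8, 32.2, 39.0 and 36.8 CPM in null and 30.9, 18.7, 23.2 and 16.7 CPM in WT libraries, log2 fold change 0.69, SE 0.19, adjusted p = 0.176) and in E7.5 Paraxial mesoderm. With the fold threshold dropped or without E9.5 null B the first was called (1.01 without null B). *Aldh1a2* was called without E9.5 null C (1.09) or E9.5 WT D (1.15), and *Cyp26b1* without E9.5 null A (1.81), null B (1.58) or WT A (2.23) and with no filter on low counts (1.69).

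In E7.5 Paraxial mesoderm, the progenitors of the somites, *Rdh10* was at 34.4 and 30.1 CPM in null A and B and 20.4 and 15.8 CPM in WT A and B (log2 fold change 0.94, SE 0.22, adjusted p = 0.17). *Aldh1a2* was at 272 and 132 CPM and 109 and 76.1 CPM (log2 fold change 1.26, 95% interval 0.096 to 2.42, adjusted p = 0.999). *Crabp2* lay the other way, at 43.7 and 56.6 CPM and 124 and 63.3 CPM (log2 fold change -0.87, 95% interval -1.59 to -0.14, adjusted p = 0.938). *Cyp26a1* was at 45.1 and 43.4 CPM and 64.3 and 47.8 CPM (log2 fold change -0.27, 95% interval -0.65 to 0.11, adjusted p = 0.999). None of these was called. Of 66 tests of the response genes within E7.5 types, 2 were called (3.03%, against 0.186% of all gene tests), among them *Hoxb1* in this type, which was higher in null, at 165 and 180.1 CPM in null and 86.3 and 75.7 CPM in WT libraries (log2 fold change 1.12, SE 0.14, adjusted p = 9.97e-04, edgeR).

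The mean transferred atlas stage of the Paraxial mesoderm cells was 7.60 and 7.68 in null A and B and 7.59 and 7.57 in WT A and B, from 177, 24, 31 and 96 cells; its part in these differences was not tested. Without E7.5 WT A, which leaves WT B alone to stand for WT, 7 of 51 tests at E7.5 were called, against 0.419% of all gene tests in that fit: *Aldh1a2* in Intermediate, Paraxial and Lateral plate mesoderm (1.40, 1.48 and 1.59), *Rdh10* in Paraxial mesoderm (1.07), *Crabp1* in Intermediate mesoderm (1.07), and *Crabp2* in Caudal epiblast and Intermediate mesoderm (1.37 and 1.22). Without WT B, 2 tests were called, both lower in null (*Crabp2* in Intermediate mesoderm, -1.11, and in Paraxial mesoderm, -1.32), and without null B 2 tests of *Aldh1a2* were (Lateral plate mesoderm 1.69, Paraxial mesoderm 1.61), against 0.237% and 0.21% of all gene tests. At E8.5, 5 of 134 tests were called without null A (0.418% of all gene tests), 4 of them lower in null: *Aldh1a2* in Allantois (-2.14) and Mesenchyme (-2.50), *Crabp1* in Hindbrain floor plate (-1.89) and *Crabp2* in Mesenchyme (-1.45), while *Crabp2* in Amniotic ectoderm was higher (1.08). Leaving out E8.5 null B gave 2 calls (*Aldh1a2* in Migratory neural crest, 1.34, and *Aldh1a3* in Surface ectoderm, 1.08), WT A 2 (*Aldh1a2* in Migratory neural crest, 1.56, and *Aldh1a3* in Pharyngeal endoderm, 2.04) and WT B 1 (*Aldh1a2* in Optic vesicle, 1.39), where 0.236%, 0.11% and 0.107% of all gene tests were called. At E9.5 the calls not yet given were those of *Aldh1a3* in Thyroid primordium, lower in null without null A (-1.49), and, without WT D, of *Crabp1* in Amniotic ectoderm (1.19) and *Aldh1a2* in Presomitic mesoderm (4.13), and 0.114% to 0.157% of all gene tests were called in the fits that left out an E9.5 library.

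**Figure D5:**
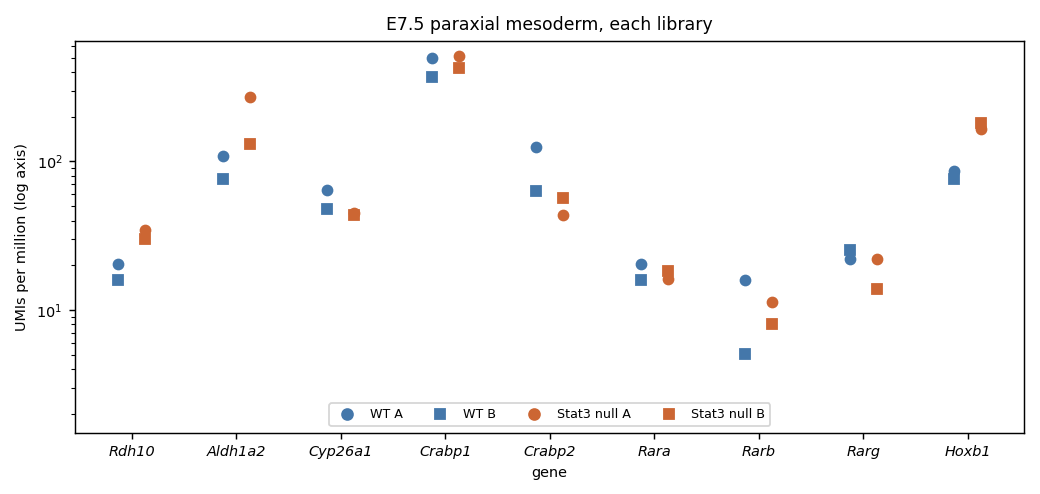
Level of the 8 genes with enough counts and of *Hoxb1* in E7.5 Paraxial mesoderm, in CPM on a log axis, for WT A and B (blue) and *Stat3* null A and B (orange); each symbol is a library. The null libraries lie above both WT libraries for *Rdh10*, *Aldh1a2* and *Hoxb1*, and below both for *Crabp2* and *Cyp26a1*. Of the genes shown only *Hoxb1* was called, and the share of all genes whose libraries separate in this way was not taken.

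In sums over all cells, none of the 10 genes passed between null and WT in the average over the stages, where 4.75% of all genes did (edgeR; 1 at an unadjusted p under 0.05). Taken stage by stage from the earliest, 0 passed as well, against 5.34%, 0.212% and 1.35% of all genes (1, 0 and 1 at an unadjusted p under 0.05). DESeq2 called 0 in each of these comparisons too, with 1 in the average and 1, 0 and 1 at the stages under an unadjusted 0.05. Of 15561 genes it called 1324 in the average and 1363, 128 and 479 at the stages. No change of the null effect from E8.5 to E9.5 was called (0 at an unadjusted p under 0.05), against 0.0321% of all genes. The 10 averages lay between 0.0011 (*Rarg*) and 0.39 (*Aldh1a2*) on the log2 scale. With types weighted equally 6 of them were below 0, those of *Aldh1a3* (-0.36), *Crabp1* (-0.052), *Crabp2* (-0.14), *Cyp26a1* (-0.089), *Rarb* (-0.020) and *Rarg* (-0.11), and that of *Aldh1a2* was 0.026. *Rdh10* had the lowest p (log2 fold change 0.18, SE 0.076, adjusted p = 0.203), with 13.4, 13.4, 14.4 and 15.9 CPM in the E9.5 null libraries and 12.9, 11.6, 14.0 and 14.7 CPM in the E9.5 WT libraries, which overlap. Its difference under equal weighting was 0.027.

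The tissue make-up differed between null (donor) and WT (host) cells at E7.5. The paper states that in conventional chimeras the anterior visceral endoderm comes from the host. Genotype goes with donor or host origin in this design, so the parts of genotype and origin cannot be told apart. At E7.5 Visceral endoderm made up 2 of 2532 null and 102 of 2506 WT cells, and ExE ectoderm 2 of 2532 and 281 of 2506. These types held 10.8% and 15.6% of the *Cyp26a1* UMIs of the E7.5 WT cells, from 3.01% and 13.2% of all UMIs. *Cyp26a1* in all E7.5 cells was at 20.5 and 22.1 CPM in null and 24.1 and 29.1 CPM in WT libraries (log2 fold change -0.28, SE 0.30, adjusted p = 0.697), and its difference with types weighted equally was -0.36. Of the 24 tested genes of retinoid handling, 4 passed in all E7.5 cells (16.7%, against 5.34% of all genes): *Dhrs4* (0.33) was higher in null, and *Ncoa3* (-0.48), *Rdh11* (-0.43) and *Rbp4* (-4.33), the plasma retinol carrier made by Visceral endoderm, were lower. Within types, 0 of 107 tests of that list were called at E7.5, 0 of 287 at E8.5 and 0 of 546 at E9.5 (edgeR; 9, 18 and 28 at an unadjusted p under 0.05). Of the response genes, 0 of 230 tests were called at E8.5 (31 at an unadjusted p under 0.05, edgeR) and 1 of 440 at E9.5, a share of 0.227% that is near the 0.12% of all gene tests. That call was *Fgf8* in Posterior somitic tissues, at 9.63, 9.64, 10.5 and 8.82 CPM in null and 27.9, 16.8, 25.5 and 11.9 CPM in WT libraries (log2 fold change -1.13, SE 0.25, adjusted p = 0.0346, edgeR). It was lost without E9.5 WT A (-0.98), WT C (-0.99), null A (-1.12), null B (-1.14), null C (-1.17) or null D (-1.09), with DESeq2 (-1.12), with the cells of shared barcodes left out (-1.08) and with either change of the tdTomato rule (-1.08 and -1.10).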

How the data were processed

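Unique molecular identifier counts per gene and cell were made by the authors with Cell Ranger on mm10 with a tdTomato sequence added, and were deposited as raw counts. The submitters kept cells by a filter on total counts (10003 to 99964 per cell in the matrix), transferred a cell type and an atlas stage to each cell from a reference atlas, and marked doublets; these labels were used as given. The atlas stage transferred to each cell, in embryonic days, was averaged over cells as deposited.

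Counts of cells that passed quality control and were not doublets were summed per library and type. Libraries of a group are 1 fraction of a pool or, at E9.5 by the labels, of an embryo; the methods of the study give 2 embryos at E9.5, so libraries may share an embryo and p-values measure the spread between libraries, which may be technical in part. Before any fit, 8178 of the 29453 genes were set aside by name, ribosomal protein, mitochondrial and haemoglobin genes among them, and 21275 were kept. Of these, genes with low counts were removed with filterByExpr, and libraries were scaled by TMM. The remaining genes were fitted with edgeR 4.0.16 (R 4.3.3, quasi-likelihood test with robust dispersion), with no block for the embryo pool. Fits were made for all cells over the 16 libraries. They were also made within each type with over 15 cells in 2 or more libraries of each group. Shares of all genes or all gene tests refer to the kept genes that were tested. Adjusted p-values (Benjamini-Hochberg) under 0.05 were called, within types also with an absolute log2 fold change over 1. Standard errors are the fold change divided by the square root of F. Levels were summarised with Python 3.11.15 and pandas 2.3.3. In simulated counts with 200 changed genes, 99% of 2-fold changes were recovered in the average over stages (15296 genes) and 100% of 4-fold changes in E9.5 Cranial mesoderm (9295 genes). The changed genes were drawn from those with high counts, and all genes were given the same spread. Fits within types at E7.5 and E8.5 were not simulated. The recovery thus does not show how well changes of genes with low counts, or at those stages, would be found.

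The members and lists were chosen with earlier results of these data known. A gene of the response list is not reported here. Named for each gene and stage were the 3 WT types with the highest mean level, every type with a call, and the 3 genes most alike in log2(CPM + 1) across types. Promoter stretches came from RefSeq (GRCm38.p6). Alternatives were DESeq2 1.42.0, other size factors, no filter on low counts, other rules for tdTomato and cell number, no fold threshold, each library left out, types weighted equally (limma 3.58.1) and, added after seeing the data, cells of shared barcodes left out and the equal weighting for the WT stages. Intervals on counts cover counting error only.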

Additional observations from a re-analysis of the deposited data

Results flagged for a closer look

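In groups of 4 libraries, a value was noted where the gap of the highest or lowest library to its nearest neighbour, as a share of the range of the group, exceeded Dixon's 95% critical value. Of 57 groups examined, 4 met this, and chance alone gives about 1 in 20. *Aldh1a3* in all cells of the E9.5 WT libraries had a gap of 0.910 of its range, with WT C at 15.1 CPM and the others at 20.8 to 21.4 CPM. *Rarg* in all cells of the same libraries had a gap of 0.953, with WT D at 18.1 CPM and the others at 13.3 to 13.5 CPM. *Aldh1a2* in Posterior somitic tissues of the E9.5 null libraries had a gap of 0.872, with null B at 63.5 CPM and the others at 117 to 125 CPM. *Rarb* in Hindbrain neural progenitors of the E9.5 null libraries had a gap of 0.959, with null D at 27.9 CPM and the others at 35.9 to 36.3 CPM.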

How the results depend on the processing

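No paired analysis was possible because the library names in the cell table match no sample title or pool, so the deposited replicate numbers could not be joined to libraries. Under settings that left out no library, 70 counts of calls stayed within 1.5 times and 6 did not, while 357 single values kept direction and call, 24 lost a call, 2 gained one and 17 reversed. Without the fold threshold 60 tests between the WT stages within types were called, and 1 at E9.5 between null and WT. The share of all gene tests called without that threshold was not taken, so these counts are not read as a result about the genes. With no filter on low counts, 1, 2 and 4 tests between null and WT were called within types, from the earliest stage to the latest. Over all genes, 280 of 103480, 489 of 279590 and 1194 of 551559 gene tests were called in these fits. Lower in null was *Aldh1a2* in E8.5 Mesenchyme (-1.43). Higher were *Aldh1a2* in E7.5 Lateral plate mesoderm (1.33), E8.5 Migratory neural crest (1.10), E9.5 Late dorsal forebrain progenitors (1.63) and E9.5 Presomitic mesoderm (1.64). *Cyp26b1* was higher in E9.5 Limb ectoderm (1.69) and E9.5 YS mesothelium (3.88). With types weighted equally, 5 genes passed in WT cells from E7.5 to E8.5. Types with over 50 cells could not be tested at E7.5, since none met that number.

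Leaving out 1 library gave 0 to 4 genes between E8.5 and E9.5 in all WT cells (0 without E8.5 WT B), 0 to 1 for null against WT averaged over stages and 0 to 2 at E7.5 (the highest without E7.5 WT A), and, within types, 0 to 7 at E7.5 (7 without E7.5 WT A), 1 to 5 at E8.5 (5 without E8.5 null A) and 0 to 3 at E9.5. Where 1 library remained in an arm, it was assumed to vary like the others. For the all-cell fits with a library left out, the share of all genes passing was not taken. Their counts are therefore not read as a result about these genes.

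Direction reversed in these all-cell log2 fold changes, none of which was called in the main fit except that of *Aldh1a3* from E7.5 to E8.5, and the cause was not tested. Under equal weighting the reversed value of *Aldh1a2* from E7.5 to E8.5 did pass (adjusted p = 0.00714, limma). With types weighted equally, *Aldh1a2* was at 1.14 and *Aldh1a3* at -0.51 from E7.5 to E8.5; *Aldh1a2* at -0.0033, *Crabp1* at -0.024 and *Rdh10* at -0.21 from E8.5 to E9.5; and, for null against WT, *Aldh1a3* at -0.36, *Crabp1* at -0.052, *Crabp2* at -0.14, *Cyp26a1* at -0.089, *Rarb* at -0.020 and *Rarg* at -0.11. From E8.5 to E9.5, DESeq2 gave -0.033 for *Aldh1a2* and -0.029 for *Rdh10*, and other size factors -0.033 and -0.029. With the cells of shared barcodes left out, *Aldh1a2* was at -0.0014 from E8.5 to E9.5 and *Rarg* at -0.0041 for null against WT. With 1 library left out, *Aldh1a2* ranged from -1.55 to 0.35 from E7.5 to E8.5 and from -0.100 to 0.11 from E8.5 to E9.5, and *Rdh10* from -0.058 to 0.068 from E8.5 to E9.5. For null against WT averaged over stages the ranges were -0.025 to 0.37 (*Aldh1a3*), -0.16 to 0.28 (*Crabp2*), -0.12 to 0.16 (*Cyp26a1*), -0.22 to 0.18 (*Cyp26b1*), -0.071 to 0.45 (*Rarb*) and -0.056 to 0.059 (*Rarg*).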
